A study of Canis lupus familiaris with 23 samples.

Results

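In healthy gingiva, 141 genes stood above their level in every one of 16 oral tumors of the dog. They were drawn from 15716 genes that passed a filter on low counts, out of 30951 gene identifiers in the table. A gene was taken when its lowest level among 7 gingiva libraries exceeded its highest level among all tumor libraries and its gingiva mean was at least 10 CPM. CPM is a count relative to the library total, here adjusted with TMM factors (trimmed mean of M values). The 100 genes most abundant in gingiva were left out, which removed 8 genes that met the other conditions. The genes were thus selected on their measured levels in gingiva and in the tumors, and the difference between gingiva and tumors is a description here and is not supported by any test.

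The libraries were made from total RNA of bulk tissue after removal of ribosomal RNA. There were 5 canine acanthomatous ameloblastomas (CAA), 3 of the maxilla and 2 mandibular, and 11 canine oral squamous cell carcinomas (COSCC), 7 of the maxilla and 4 mandibular. The 7 controls were healthy gingiva, with the jaw undetermined in 6. The dogs were of mixed descent or of several named breeds in each group, no treatment is given in the labels, and a code, FS or MC, is attached to each dog without an explanation. Each library was taken as a separate dog. The labels do not say so outright, so p-values measure the spread between these samples.

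Gingiva is a mucosa bound to the jaw, with a stratified squamous epithelium that keratinizes toward its surface over a connective tissue with vessels and nerves. CAA is a locally invasive tumor of odontogenic epithelium, the epithelium that forms teeth, and COSCC is an invasive carcinoma of the surface epithelium. A biopsy of any of them mixes epithelium with stroma and immune cells. In such bulk samples, fewer cells of a type and less RNA per cell cannot be told apart. The table gives Ensembl dog identifiers alone, and 0 of 30951 matched an entry of the RefSeq gene table at hand (assembly UU_Cfam_GSD_1.0). The genes are therefore described by their levels, without symbols, positions, sequences or functions, and the tissue labels were not checked against marker genes.

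Total counts ran from 15120326 to 16813220 per library. The TMM factors, which correct for the composition of a library, ran from 0.7596 to 1.042 in gingiva, from 0.98 to 1.239 in CAA and from 0.7614 to 1.296 in COSCC. At this depth the 141 genes were well counted in gingiva. Their lowest gingiva count ranged from 35 to 9776, with a median of 905 over the genes.

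The 141 genes covered a wide span of abundance in gingiva. Their mean gingiva level ran from 10.51 to 985.6 CPM, with a median of 109.4 CPM. There were 39 genes under 50 CPM and 10 of at least 500 CPM, and the latter held 29.7% of the summed gingiva level. In CAA the mean level of the genes ran from 0.182 to 336.3 CPM, with a median of 26.6 CPM. In COSCC it ran from 0.425 to 324.7 CPM, with a median of 29.6 CPM. Most of the genes were thus reduced in the tumors and still present: only 10 had a CAA mean under 1 CPM, 3 a COSCC mean under 1 CPM, and 2 were under 1 CPM in both. There were 15 genes with no count in at least 1 tumor library, and 0 genes stayed under 1 CPM in all 16.

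Genes with no overlap between gingiva and the tumors were a small part of the table. Of all 15716 genes tested, 178 (1.13%) had their highest tumor library below their lowest gingiva library. Of the 9068 genes abundant enough for the rule and not among the most abundant, the 141 made up 1.55%. Of the same 9068 genes, 847 (9.34%) had all 5 CAA libraries below gingiva and 190 (2.1%) all 11 COSCC libraries. The 141 genes were 16.6% of the first list and 74.2% of the second. Both lists use the same gingiva libraries, and the smaller number of CAA libraries makes the condition easier to meet there.

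The distance between gingiva and the tumors was narrow for most of the genes. The ratio of the lowest gingiva library to the highest tumor library had a median of 1.179 and ran from 1.001 to 6.518. It was under 1.1 in 56 genes, at least 2 in 20 and at least 4 in 5. The closest genes on either side of the limit were nearly alike. Of the closest inside, 1 had 96.5 CPM in its lowest gingiva library against 96.4 CPM in its highest tumor library, and the next had 53.5 against 53.3 CPM. Just outside, the corresponding values were 66.5 against 66.6 CPM and 131.2 against 131.4 CPM.

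**Figure D1:**
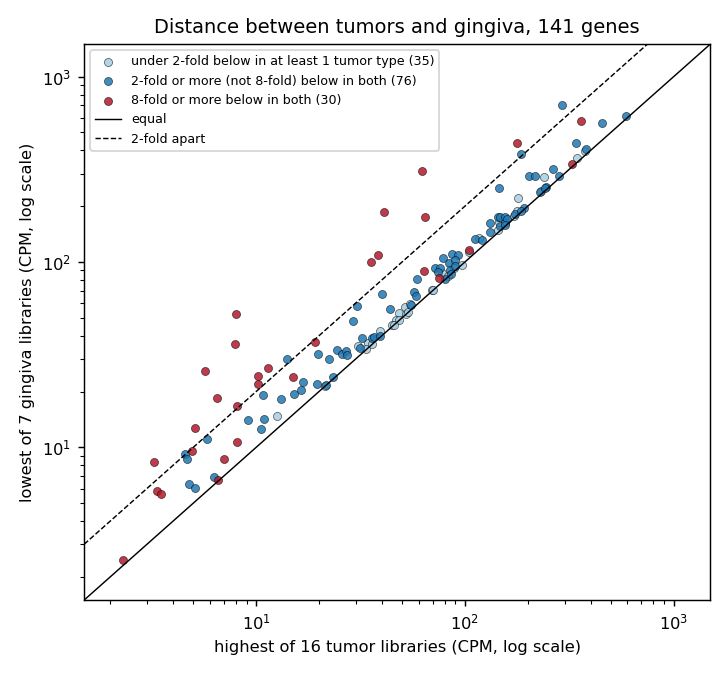
Each point is 1 of the 141 genes, with its highest level among 16 tumor libraries on the x axis and its lowest among 7 gingiva libraries on the y axis, both in CPM on log scales. All points lie above the solid line of equality by the rule, and 20 lie on or above the dashed line of a 2-fold distance. Colors give the size of the mean fall.

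The gingiva limit was set mostly by a few libraries, and the tumor limit by many. Gingiva replicate 3 was the lowest gingiva library for 43 of the 141 genes and replicate 6 for 34, against 5 for replicate 2. COSCC replicate 11 was the highest tumor library for 20 genes. COSCC replicates 5, 4, 2, 9 and 8 were the highest for 16, 15, 14, 13 and 12, CAA replicate 4 for 11 and CAA replicate 5 for 0. The number of genes rested on gingiva replicate 3: without it 360 genes met the rule, 135 of the 141 among them. Without any other single library the number was between 136 and 177. With library totals in place of TMM scaling, 64 genes met the rule, of which 60 were among the 141.

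The summed level of the genes was similar in CAA and COSCC. That it was higher in every gingiva library than in every tumor follows from the rule. Gingiva had 26355 ± 4569 CPM (SD, n = 7), CAA 6761 ± 1195 CPM (SD, n = 5) and COSCC 7145 ± 1380 CPM (SD, n = 11). As a share of raw counts, without any scaling for composition, gingiva libraries gave 2.318% ± 0.332 (SD, n = 7), CAA libraries 0.772% ± 0.111 (SD, n = 5) and COSCC libraries 0.721% ± 0.119 (SD, n = 11). The gingiva libraries ranged from 21638 CPM in replicate 3 to 35208 CPM in replicate 2. In COSCC the sum ranged from 4398 CPM in replicate 3 to 9713 CPM in replicate 11. In CAA it was 7310, 6401, 6482, 8419 and 5194 CPM in replicates 1 to 5. The high value of gingiva replicate 2 went with a TMM factor of 0.7596, the lowest in gingiva, and its raw share of 2.673% was close to the 2.628% of gingiva replicate 1.

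The depth of the fall varied greatly from gene to gene. The edgeR log2 fold change against gingiva had a median of -2.06 in CAA, from -7.23 to -0.27, and of -1.75 in COSCC, from -5.99 to -0.35. Over all genes tested the medians were 0.04 and 0.14. At least a 2-fold fall was seen in 112 of the 141 genes in CAA and in 113 in COSCC, with 106 in both. A fall of at least 8-fold was seen in 42 genes in CAA and 35 in COSCC, with 30 in both. A fall of at least 32-fold was seen in 19 genes in CAA and 7 in COSCC, with 7 in both. In the fit across all genes, edgeR gave an adjusted p under 0.05 for a lower level in 135 of the 141 genes in CAA (10.8% of all genes tested) and in 141 in COSCC (13.5% of all genes tested), counts that the selection itself largely fixes.

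**Figure D2:**
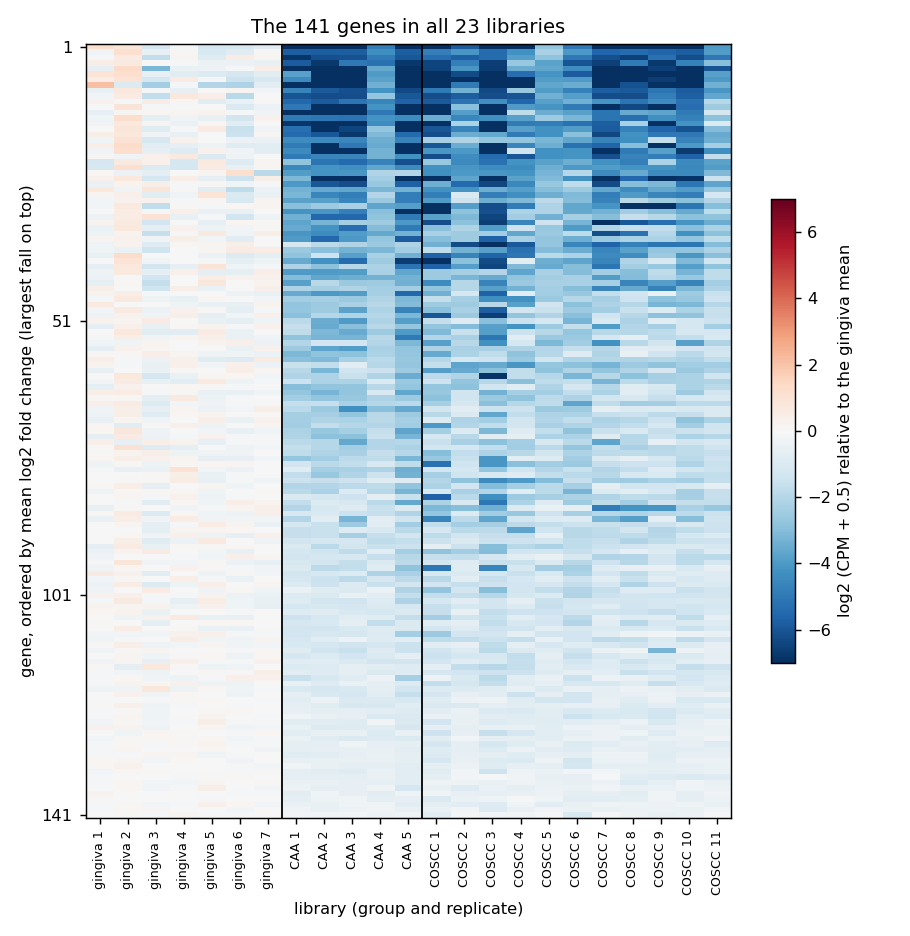
Rows are the 141 genes, ordered by the mean of their CAA and COSCC log2 fold changes with the largest fall on top. Columns are the 23 libraries, and color gives log2 of (CPM + 0.5) relative to the gingiva mean of the gene. All tumor columns are below gingiva, and in the top rows CAA replicate 4 and COSCC replicates 5, 6 and 11 are paler than most other tumor columns.

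The genes were divided by the size of their mean fall. In 35 genes the fall was under 2-fold in at least 1 tumor type, in 76 it was 2-fold or more in both without reaching 8-fold in both, and in 30 it was 8-fold or more in both. The median gingiva level was 81.9 CPM in the genes of small fall, 123.9 CPM in the middle set and 77.5 CPM in the genes of deep fall, so that the sets did not follow abundance in order. The genes of small fall had a median of 54.3 CPM in CAA and 50.2 CPM in COSCC. The genes of deep fall had a median of 1.89 CPM in CAA and 2.58 CPM in COSCC. Among the 30 genes of deep fall, the lowest gingiva library was at least 2 times the highest tumor library in 16, while in the 35 genes of small fall that ratio was at most 1.229.

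A gene that falls by under 2-fold can meet the rule only where it varies little, so the small spread of these genes follows from their selection. For the genes of small fall the standard deviation of log2 CPM between libraries had a median of 0.194 in gingiva, 0.206 among CAA and 0.31 among COSCC. In the genes of deep fall it was 0.775, 1.74 and 1.81. Over all 141 genes the medians were 0.398, 0.519 and 0.747 in the same order, against 0.373, 0.332 and 0.486 over the 9068 genes eligible for the rule. The medians of the 141 genes were above those of the eligible genes in all 3 groups. Of the 30 genes of deep fall, 23 had a tumor library with at most 3 counts. The part of low counts in their spread was not tested.

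The tumors kept the genes of deep fall to unequal degrees. The median log2 level of these 30 genes against the gingiva mean was -5.10, -7.09, -6.80, -3.36 and -7.37 in CAA replicates 1 to 5. In COSCC it was -3.35 in replicate 11, -3.45 in replicate 5 and -3.81 in replicate 6, and it fell to -6.91 in replicate 3. The summed level of the 30 genes was 583 CPM in CAA replicate 4 and 64.9 CPM in CAA replicate 5. It was 1166 CPM in COSCC replicate 11 and 49.4 CPM in COSCC replicate 3, while gingiva ranged from 3726 to 9963 CPM. CAA replicate 4 and COSCC replicates 5, 6 and 11 had 4, 3, 3 and 3 of the 30 genes under 1 CPM. In CAA replicates 2, 3 and 5 the number was 21, 20 and 19, and in COSCC replicates 1, 3 and 7 it was 19, 20 and 21. The libraries that kept more carried no common label: CAA replicate 4 and COSCC replicate 5 came from the mandible, COSCC replicates 6 and 11 from the maxilla.

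The order of the carcinomas was different for the genes of middling fall. Their median in COSCC was highest in replicate 9, at -1.50, followed by -1.52 in replicate 11, whereas replicate 9 had -5.49 for the genes of deep fall. COSCC replicate 6, among the highest for the genes of deep fall, had -2.16 for the middle set, below 8 of the other carcinomas. COSCC replicate 3 was lowest in all 3 sets, with -0.94, -2.97 and -6.91, and also had the highest TMM factor, 1.296. The part of the scaling in that position was not tested. For the genes of small fall the tumor libraries were close together, from -0.94 to -0.54 in COSCC and from -0.87 to -0.63 in CAA.

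**Figure D3:**
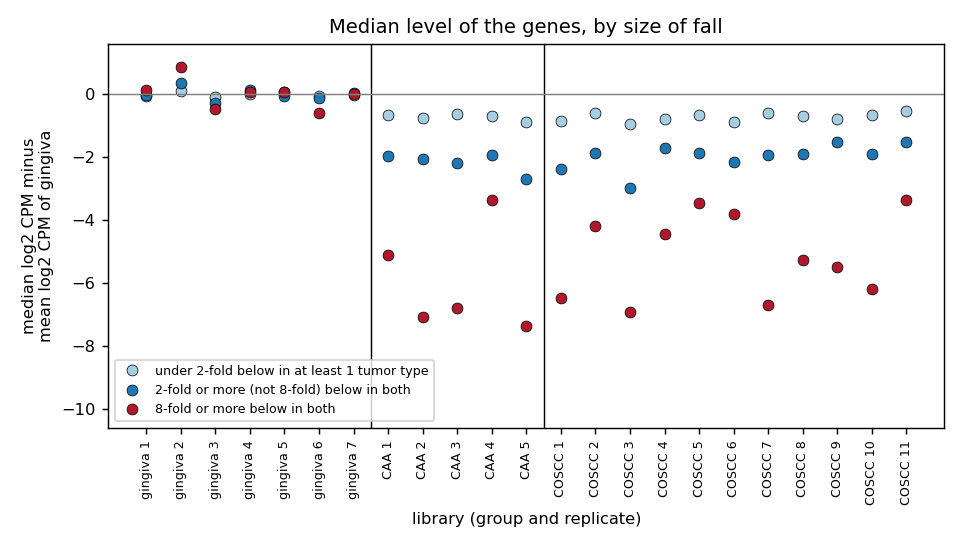
The y axis gives, for each library on the x axis, the median over genes of log2 CPM minus the mean log2 CPM of gingiva, for 3 sets of genes by size of fall. Genes of small fall lie between -0.94 and -0.54 in every tumor, while genes of deep fall range from -7.37 to -3.35.

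Correlations between the genes across libraries were computed within COSCC and within gingiva; those of CAA, with 5 libraries, are not given. Within the 11 COSCC libraries the median Pearson correlation between 2 of the 141 genes was 0.18, over 9870 pairs, against 0.01 over pairs of the 9068 eligible genes. It was 0.48 among the 30 genes of deep fall, 0.2 in the middle set and 0.13 in the genes of small fall. Within the 7 gingiva libraries the median over all pairs of the 141 genes was 0.21, and it was 0.33, 0.24 and 0.1 in the same sets, against 0 for eligible genes. All pairs share their libraries and scaling factors, so these values are descriptions.

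ENSCAFG00000007271 and ENSCAFG00000013853 had the widest distance from gingiva and show how far the tumors could differ. ENSCAFG00000007271 was at 52.3 CPM in its lowest gingiva library, 69.5 CPM at the median and 265.5 CPM in the highest. In CAA it was at 7.82, 0.409, 0.324, 7.03 and 0.111 CPM in replicates 1 to 5. In COSCC its lowest, median and highest levels were 0.0718, 0.345 and 8.02 CPM. The highest tumor value was thus 6.52 times below the lowest gingiva value, but CAA replicates 1 and 4 and COSCC replicates 5 and 11 lay far above most other tumors. At most 3 counts were found in 1 CAA and 5 COSCC libraries. The edgeR log2 fold change was -5.23 ± 1.27 (SE) in CAA and -5.99 ± 0.93 (SE) in COSCC.

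ENSCAFG00000013853 was far more abundant in gingiva and shared the high CAA libraries of ENSCAFG00000007271, but the high carcinomas were not all the same. Its gingiva levels were 307.8 CPM at the lowest, 788.6 CPM at the median and 1650 CPM at the highest. In CAA it was at 39.1, 4.04, 4.32, 62.5 and 0.613 CPM in replicates 1 to 5, and again replicates 1 and 4 were the high ones. In COSCC it was at 0.113 CPM at the lowest, 2.26 CPM at the median and 57.6 CPM at the highest. COSCC replicates 5, 6 and 11 stood apart at the top, with 57.6, 54.2 and 53.3 CPM, above 8.55 CPM in the next carcinoma. The edgeR log2 fold change was -5.28 ± 1.54 (SE) in CAA and -5.69 ± 1.11 (SE) in COSCC. For CAA against COSCC the edgeR adjusted p was 0.607 for ENSCAFG00000007271 and 0.832 for ENSCAFG00000013853.

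CAA and COSCC were then compared directly. The selection did not use this contrast, but it used the tumor levels: a gene that reached the gingiva range in either tumor was left out. The share of the 141 genes that differ is therefore not independent of the rule. The question was whether the tumors differ in how far they reduce the same gingival genes. edgeR gave an adjusted p under 0.05 for 9 of the 141 genes (6.38%), against 8.72% of all 15716 genes. Of the 9, 4 were higher in CAA (4.09% of all genes tested) and 5 were lower (4.63% of all genes tested). In this main fit the share of the 141 genes was thus below that of all genes, but the side depended on the processing. The share was above that of all genes with library totals (8.51% against 7.59%) and without the low-count filter (4.26% against 3.52%). With replicate number as a block it was also above (1.42% against 0.98%). The same held without CAA replicate 4 (19.9% against 12.9%), 1 (5.67% against 4.81%) or 5 (2.84% against 2.12%). An unadjusted p under 0.05 was found for 38 genes (27%), where all genes gave 29.9%. The median log2 difference, CAA minus COSCC, was -0.13 over the 141 genes and -0.07 over all genes, and 81 of the 141 estimates lay below 0. With library totals the medians turned to 0.03 and 0.09, and the calls to 9 higher and 3 lower. All genes turned the same way: 61.3% of the 1193 genes called with library totals were higher in CAA, against 46.9% in the main fit.

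The count of 9 depended on the method and on single libraries. DESeq2 gave 24 genes (17%, against 18.5% of all genes) and limma voom with sample quality weights 42 (29.8% against 37.6%), each with all 9 among them. A fit of only both tumors gave 2 (1.42% against 2.82%). Without CAA replicate 4, the CAA library with the highest levels of the genes of deep fall, 28 genes passed. Of these, 24 were lower in CAA and 4 higher. Over all genes in that fit, 1220 of the 2076 called were lower in CAA (7.61% of genes tested), and 41.2% of the called were higher. The median log2 difference was -0.25 over the members and -0.08 over all genes. Without CAA replicates 2, 3 or 5 there were 2, 2 and 4 genes (1.42%, 1.42% and 2.84%, against 1.97%, 1.69% and 2.12% of all genes). Without COSCC replicates 1, 3 or 5 there were 14, 20 and 15 (9.93%, 14.2% and 10.6%, against 11.6%, 14.5% and 14.5%). The larger estimates lay mostly on the side of lower levels in CAA. The estimate was at least 2-fold lower in CAA for 28 of the 141 genes (19.9%, against 13.7% of all genes) and at least 2-fold higher for 6 (4.26% against 7.55%). With library totals these numbers were 23 (16.3% against 11.5%) and 8 (5.67% against 9.54%). Of the 132 genes that did not pass, 23 were estimated at least 2-fold lower and 3 at least 2-fold higher in CAA, so equal levels in the tumors were not shown for them. Some of the 23 estimates rested on few CAA counts, such as -2.45 ± 1.13 (SE) at a CAA mean of 0.182 CPM. The part of low counts in the direction of the larger estimates was not tested. Of the 30 genes of deep fall 0 passed, against 8.72% of all genes tested, and 8 of the 9 belonged to the middle set of 76 genes. The sets were cut on the same fold changes, so a gene of deep fall in only CAA or only COSCC is outside the deep set. The genes of deep fall also varied most, with a median SD of log2 CPM of 1.74 in CAA and 1.81 in COSCC. These counts therefore do not show that the tumors agree on the genes of deep fall.

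**Figure D4:**
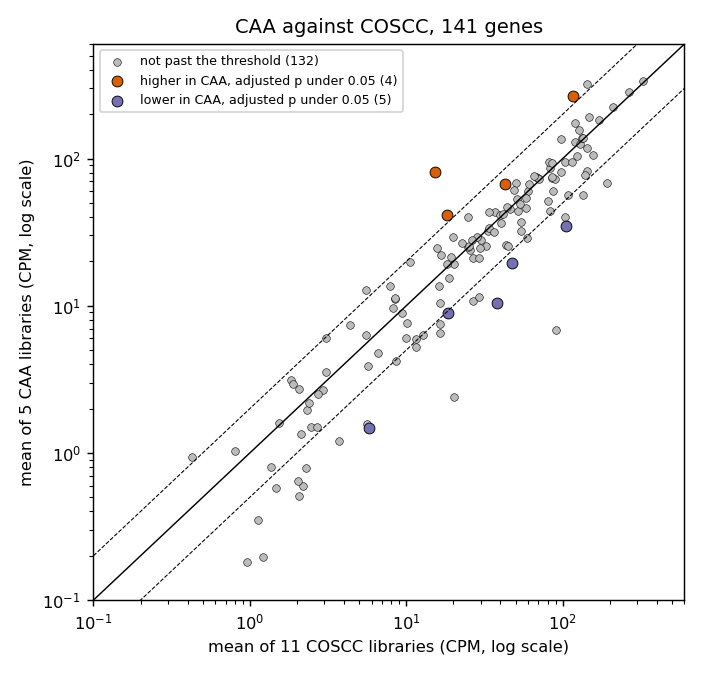
Each point is 1 of the 141 genes, with its mean CPM over 11 COSCC libraries on the x axis and over 5 CAA libraries on the y axis, both on log scales. The solid line marks equal means and the dashed lines a 2-fold difference. The 4 genes higher and 5 genes lower in CAA at an edgeR adjusted p under 0.05 are colored.

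ENSCAFG00000016850 differed most among the genes higher in CAA. It was at 132.2, 83.2, 71.7, 49.2 and 67.7 CPM in CAA replicates 1 to 5, at 1.02, 8.53 and 45.9 CPM in the lowest, median and highest COSCC library, and at 163.1, 324.1 and 401.8 CPM in the lowest, median and highest gingiva library. The 3 groups did not overlap: every CAA lay above every COSCC and below every gingiva library. The log2 difference between CAA and COSCC was 2.40 ± 0.53 (SE, edgeR adjusted p = 0.0126), and it passed the threshold in all 33 other fits. Ranges of CAA and COSCC were apart for 2 of the 141 genes (1.42%), against 1.11% of all genes tested.

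ENSCAFG00000016031, the next among those higher in CAA, was an abundant gene of smaller fall. In CAA it was at 216.4, 206.1, 228.0, 341.4 and 331.8 CPM in replicates 1 to 5. Its lowest, median and highest levels were 28.3, 114.7 and 206.7 CPM in COSCC and 437.5, 635.7 and 899.8 CPM in gingiva. The tumors touched at a single point, since the highest carcinoma, replicate 6, was at the level of the lowest CAA. The log2 difference was 1.19 ± 0.31 (SE, edgeR adjusted p = 0.025), past the threshold in 27 of 33 other fits. It did not pass without CAA replicate 2 (0.0508), 3 (0.0595) or 5 (0.0797), each an edgeR adjusted p.

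In the opposite direction, ENSCAFG00000013285 was lower in CAA than in COSCC. It was at 2.19, 1.18, 0.27, 3.26 and 0.502 CPM in CAA replicates 1 to 5, from 5 to 50 counts. Its lowest, median and highest levels were 1.49, 6.16 and 10.8 CPM in COSCC and 19.3, 26.7 and 51.7 CPM in gingiva. CAA replicates 1 and 4 lay within the COSCC range and the other CAA below it. The log2 difference was -1.96 ± 0.52 (SE, edgeR adjusted p = 0.027), past the threshold in 27 of 33 other fits. Without CAA replicate 2, 3 or 5 the edgeR adjusted p was 0.0792, 0.0847 and 0.084.

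ENSCAFG00000010038 had the next largest difference of that direction and was the least stable. It was at 10.3, 7.26, 7.72, 24.4 and 2.23 CPM in CAA replicates 1 to 5. In COSCC it was at 1.95, 38.1 and 85.7 CPM at the lowest, median and highest, and in gingiva at 86.2, 121.8 and 173.2 CPM. Its highest carcinoma, replicate 9, nearly reached the lowest gingiva library, and the lowest, replicate 3, lay below all CAA. The log2 difference was -1.87 ± 0.59 (SE, edgeR adjusted p = 0.0483). It passed in 10 of 33 other fits, and of the 23 fits without 1 library 17 lost it, with edgeR adjusted p-values up to 0.1315.

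**Figure D5:**
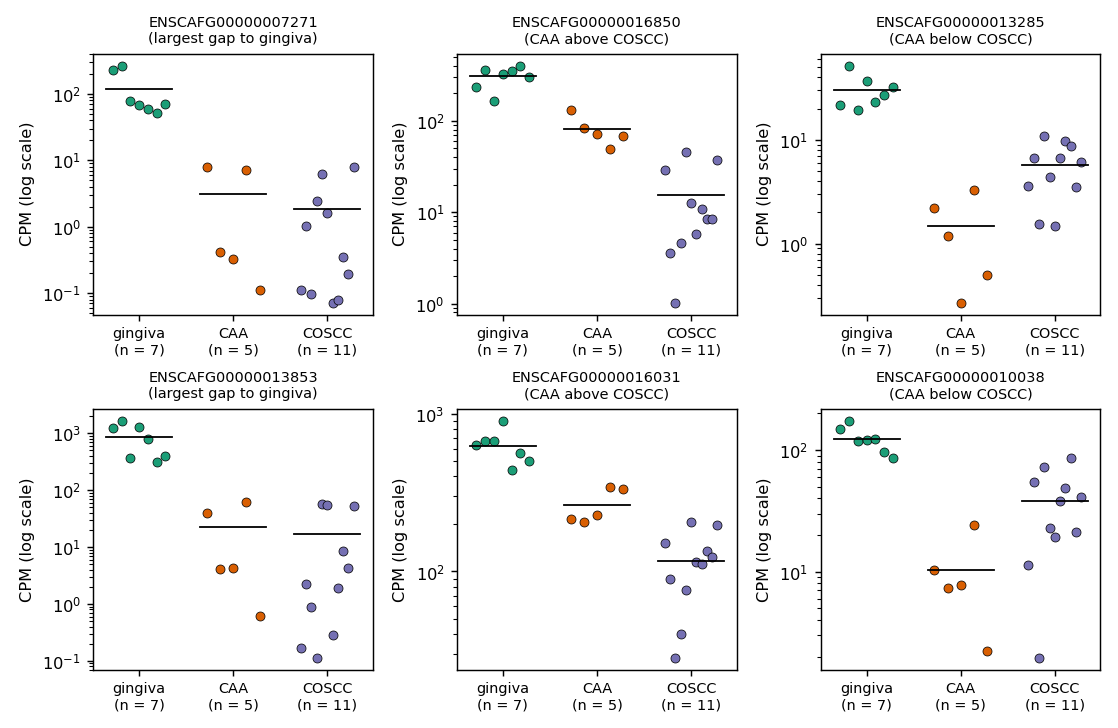
Each panel shows 1 gene, with a point per library in CPM on a log scale and a line at the group mean, for gingiva (n = 7), CAA (n = 5) and COSCC (n = 11). The left panels show the genes of widest distance from gingiva, the middle panels genes higher in CAA than COSCC, and the right panels genes lower in CAA. In all 6 panels every tumor lies below every gingiva library.

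The other 5 genes past the threshold between the tumors had smaller estimates than the named genes of the same direction. Higher in CAA were 1 gene with a log2 difference of 1.18 (41.2 CPM in CAA, 18.1 CPM in COSCC and 126.8 CPM in gingiva, group means) and 1 of 0.65 (67.4, 43.0 and 115.6 CPM). Lower in CAA were genes with log2 differences of -1.61 (34.7, 105.6 and 249.5 CPM), -1.29 (19.5, 47.6 and 147.4 CPM) and -1.04 (8.96, 18.5 and 56.2 CPM). Their edgeR adjusted p-values ran from 0.0126 to 0.0436. In each of the 9 genes the tumor with the higher level was still below gingiva in every library, as the rule requires.

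Position in the jaw was compared within the carcinomas, 4 mandibular against 7 maxillary. Of the 140 members tested in that fit, 0 had an edgeR adjusted p under 0.05 (0% of the 14958 genes tested), the smallest being 0.243. An unadjusted p under 0.05 was found for 8 members (5.71%), against 13.1% of genes tested, and in 2 of the 8 the mandible was higher. DESeq2 called 1 of the 140 members, and 400 of the 14958 genes. The estimates for members ran from -1.44 to 2.53 on the log2 scale, with a median of -0.02. MC was the code of all 4 mandibular carcinomas and FS that of 6 of the 7 maxillary ones, so that jaw and code can hardly be told apart.

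MC and FS were also compared across the whole set of 23 libraries, allowing for group. For MC against FS edgeR gave 0 of the 141 genes (0% of all genes tested) with an adjusted p under 0.05. At an unadjusted p under 0.05 there was 1 member (0.709%), against 5.06% of all genes tested. DESeq2 called 2 genes in all and 0 members. The median log2 difference of the members was 0.06.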

How the data were processed

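The authors deposited a table of raw counts per Ensembl dog gene identifier, 1 column per library. STAR and the build canFam3 are named in the submitters' processing notes without role or version. The counting program, use of strand and annotation release are not given in the sources used here, so reads of near-identical or overlapping genes may be divided in an untraced way. All 23 columns were matched by library name and 0 were unmatched. No pair among 86 pairs of libraries within a group agreed within counting noise (mean chi-square per gene at least 49.7).

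Genes were filtered with filterByExpr by group and scaled by TMM, and a quasi-likelihood model with a mean per group was fitted to all libraries in edgeR 4.0.16 (R 4.3.3). The Benjamini-Hochberg adjustment ran over all genes tested, with a threshold of 0.05. Standard errors are approximate, from the size of the log2 fold change over the root of F. Log2 CPM used a prior count of 2. DESeq2 1.42.0, limma 3.58.1, other scalings, filters and covariates, and leaving out each library served as alternatives. The fit was run on simulated counts with known changes set in CAA and otherwise the same mean per gene in all groups. The fall of the members from gingiva to low tumor levels was not simulated, so no error rate for them is drawn from it. The members, lists and tests were chosen with earlier results of these data known. Planned gene lists and markers were not used, since no symbols were matched. Identifiers are printed, by the naming rule, for the 2 genes of widest distance from gingiva (0.1 CPM added to both sides) and for the 2 largest differences in each direction between CAA and COSCC. No molecular identifiers are mentioned in the labels, so the counts are of reads and not of independent molecules.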

Additional observations from a re-analysis of the deposited data

Results flagged for a closer look

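The effects of the tumors against the shared gingiva libraries differed, in the direct edgeR test of CAA against COSCC, in 9 of the 141 genes. Among those named, the log2 difference was 2.40 for ENSCAFG00000016850 and 1.19 for ENSCAFG00000016031, where CAA kept more of the gingival level. It was -1.96 for ENSCAFG00000013285 and -1.87 for ENSCAFG00000010038, where COSCC kept more. A library far from the rest of its group was looked for in the CAA and gingiva values of 8 measures (summed and median levels of the 141 genes, and the 6 named genes). Of these 16 sets 0 exceeded the 95% limit of Dixon's test, and about 0.8 would do so by chance.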

How the results depend on the processing

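The number of genes that met the rule, 141, was 64 with library totals and 20 when the lowest gingiva library had to be at least 2 times the highest tumor; leaving out 1 library gave 136 to 360. For CAA against COSCC, 1371 genes passed in all, and 2902 with DESeq2, 5903 with limma voom, 432 with only both tumors, 765 with the maxilla only and 270 to 2261 when 1 library was left out. The 9 members past the threshold became 24, 42, 2, 3 and 2 to 28 in the same order. With the maxilla only, the share was 2.17% of the members tested against 4.96% of all genes. For CAA against gingiva, limma voom gave 6929 genes against 3862. Leaving out 1 library gave 2312 to 4219 (14.5% to 27.1% of genes tested), with 124 to 138 members (87.9% to 97.9%). For COSCC against gingiva the range was 4037 to 5929 (25.7% to 37.8%), with 139 to 141 members (98.6% to 100%). The selection itself largely fixes the member counts against gingiva. With library totals, 108 members passed in CAA and 130 in COSCC, all lower than gingiva. Over all genes tested, those lower than gingiva then numbered 835 (5.31%) in CAA and 1046 (6.66%) in COSCC, against 1699 and 2128 in the main fit. For the jaw, DESeq2 gave 400 of 14958 genes and 1 of 140 members, against 0 of each in edgeR. Leaving out 1 library gave 0 to 1 gene and 0 members. For the code, DESeq2 gave 2 genes, and leaving out 1 library 0 genes and 0 members. The causes of these shifts were not tested. No recomputed value of a named gene changed direction.

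Replicate numbers gave no clear pairing of the samples. Deviations of same-numbered libraries from their group means had correlations of -0.019 to 0.197 for CAA and COSCC. They ran from -0.175 to 0.144 for CAA and gingiva, and from -0.242 to 0.266 for COSCC and gingiva. The best correlation was with the own number for 1 of 5 CAA libraries in COSCC, 0 of 5 CAA libraries in gingiva and 1 of 7 COSCC libraries in gingiva. Whether any libraries share a dog was not tested. With a replicate block, CAA against COSCC gave 154 genes and 2 members, CAA against gingiva 3458 genes and COSCC against gingiva 3369. Few counts in tumors limit the genes of deep fall, of which 23 of 30 had a tumor library with at most 3 counts, while 5 had means of at least 10 CPM in both tumors.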

Other observations

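The 8 genes set aside for their abundance met the other conditions of the rule. Their gingiva means ran from 977 to 47331 CPM, and their lowest gingiva library was 1.036 to 5.119 times their highest tumor library. Their edgeR log2 fold changes against gingiva ran from -8.63 to -0.76 in CAA and from -6.23 to -0.69 in COSCC.

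The largest estimated difference between the tumors among the 141 genes did not pass the threshold. This gene, chosen after its values were seen, had gingiva levels of 849.7 ± 164.5 CPM (SD, n = 7), CAA levels of 6.79 ± 10.6 CPM (SD, n = 5) and COSCC levels of 90.5 ± 112.2 CPM (SD, n = 11). Its carcinomas ran from 0.113 to 359.4 CPM, and the log2 difference, CAA minus COSCC, was -3.74 ± 1.20 (SE, edgeR adjusted p = 0.0525).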
